A study of Homo sapiens with 48 samples.

Results

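Small nucleolar and Cajal-body RNAs were followed in 20 groups of cultured breast cancer cells, on 48 Illumina HumanHT-12 arrays with 1 array for each sample. The members were all probes whose gene symbol starts with SNORD, SNORA or SCARNA and whose detection p was under 0.01 on at least 2 arrays. This gave 131 probes of 130 genes, out of 304 such probes on the array and out of 16659 probes of 12489 genes tested. By symbol, 66 probes belonged to C/D box RNAs (SNORD), 56 to H/ACA box RNAs (SNORA) and 9 to Cajal-body RNAs (SCARNA). The 3 U3 probes (SNORD3A, SNORD3C and SNORD3D) are C/D members, which left 63 other C/D probes. Just inside the rule, 40 members were detected on 2 or 3 arrays, and the 173 probes outside it were detected on at most 1.

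BV6 belongs to the bivalent Smac mimetics, compounds that remove the cellular inhibitors of apoptosis cIAP1 and cIAP2 and so set off NF-kB signalling. MDA-MB-231 is a mesenchymal-like breast cancer line without hormone receptors, and EVSA-T is a second breast cancer line. The siRNA experiment used MDA-MB-231 cells that carried siRNA against TNFR1, RELA or IRF1, or control siRNA, at 5 nM for 36 h, each then given 50 nM BV6 for 9 h or left untreated, with 3 arrays per group. The kinetic experiment used MDA-MB-231 cells without transfection, given 50 nM BV6 and collected after 3 h, 6 h, 9 h, 12 h and 15 h, or left untreated and collected at 0 h, 9 h and 15 h, with 2 arrays per group. EVSA-T cells carried siRNA against TNFR1 or control siRNA in the same way, and were given 5 nM BV6 for 9 h or left untreated, with 2 arrays per group. The 10-fold lower dose in EVSA-T means that the lines were not compared at a matched dose. An siRNA lowers its target without deleting the gene, and all transfected groups, controls included, had the transfection itself. No sample label or column header names a slide. The slide numbers used below follow the order of the samples, with 12 arrays to a slide, and are assumed.

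Small nucleolar RNAs guide chemical modification of ribosomal RNA. C/D box RNAs direct 2'-O-methylation and H/ACA box RNAs direct pseudouridylation, whereas Cajal-body RNAs direct the same modifications on spliceosomal RNAs. U3 is an exception among C/D RNAs: it guides no modification but is needed for the cleavages that release 18S ribosomal RNA, and its genes have promoters of their own. Most other members are cut out of introns of longer genes, so their level depends on a host transcript as well as on their own stability. The U3 genes are near-identical copies, so their 3 probes may read the same RNA and are not independent. Labelling kits of the kind used here prime on poly(A) tails, which most of these RNAs lack in their mature form. A signal may therefore come from mature RNA, from tailed or extended forms or from a host transcript, and these cannot be told apart here.

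Between 10167 and 13072 of the probes on an array were detected. Of the 131 members, SNORA61 and SNORA67 were detected on all 48 arrays, 29 members on 24 or more, 18 on no untreated array and 6 on no array with BV6. A member detected only with BV6 could enter through its rise, so the counts below do not stand for all snoRNAs of the cell. The deposited detection p does not always follow the deposited signal, so some probes with a clear signal are listed as not detected. Replicates correlated at r of 0.984 to 0.993 across probes and no array copied another. The targets were low where labelled: TNFRSF1A (TNFR1) stood at least 18.5-fold lower in siTNFR1 than in siCtrl MDA-MB-231 cells, RELA at least 3.57-fold lower in siRELA cells, and IRF1 fell by 3.35 on the log2 scale in siIRF1 cells. Of 6 MDA-MB-231 markers, 5 were detected on all 40 arrays of that line, SPARC on none. Of 8 epithelial markers, 5 were detected on all 8 EVSA-T arrays, GATA3 on none. The lists overlapped between lines: 3 epithelial markers were detected on all 40 MDA-MB-231 arrays and 0 on none. Of the MDA-MB-231 markers, 1 was detected on all 8 EVSA-T arrays and 3 on none.

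U3 rose with time under BV6, and its level at 15 h was the highest of the kinetic experiment. Values are normalized log2 signals, and each BV6 time was tested against all 6 untreated arrays, so the times share their controls. SNORD3D lay between 6.75 and 7.49 (median 7.16) on the 6 untreated arrays, and stood at 7.50 and 7.80 at 3 h, 8.01 and 7.70 at 6 h, 9.60 and 8.76 at 9 h, 11.01 and 10.01 at 12 h, and 11.14 and 11.29 at 15 h. SNORD3A lay between 6.55 and 7.28 (median 6.93) untreated, and stood at 6.59 and 6.99 at 3 h, 7.31 and 7.14 at 6 h, 9.14 and 8.19 at 9 h, 10.37 and 9.47 at 12 h, and 10.63 and 10.34 at 15 h. SNORD3C lay between 5.59 and 6.25 (median 5.69) untreated, and stood at 5.60 and 5.63 at 3 h, 6.13 and 6.08 at 6 h, 7.91 and 6.95 at 9 h, 8.99 and 8.08 at 12 h, and 9.51 and 9.23 at 15 h. For all 3 probes the arrays from 9 h on lay above every untreated array, and replicate 1 lay well above replicate 2 at 9 h and 12 h.

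**Figure D1:**
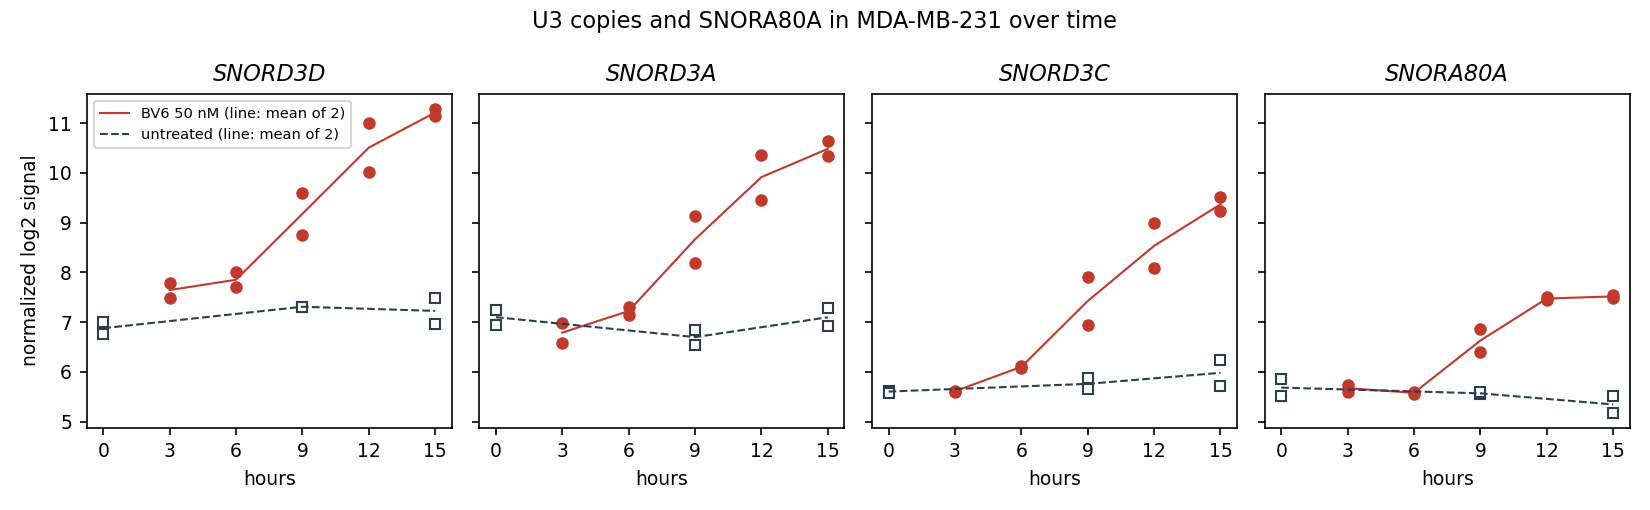
Normalized log2 signal (vertical axis) of SNORD3D, SNORD3A, SNORD3C and SNORA80A in untransfected MDA-MB-231 cells against hours of 50 nM BV6 (horizontal axis), with the untreated arrays (open squares) at 0 h, 9 h and 15 h. Each point is 1 array and the lines join group means; the U3 probes stand at 9.23 to 11.29 at 15 h, and the 6 untreated arrays lie between 5.59 and 7.49.

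At 15 h, SNORD3D was 16.9-fold higher than in untreated cells (log2 change 4.08 ± 0.26 SE, adjusted p = 3.7e-06, limma with Benjamini-Hochberg adjustment over all probes tested). SNORD3C was 12.0-fold higher (3.59 ± 0.26, adjusted p = 9.32e-06) and SNORD3A 11.5-fold higher (3.52 ± 0.27, adjusted p = 1.36e-05). At 12 h the log2 changes were 3.37, 2.75 and 2.95 for SNORD3D, SNORD3C and SNORD3A, with adjusted p of at most 0.000104. At 9 h they were 2.04, 1.64 and 1.70, with adjusted p of 0.00294, 0.0127 and 0.0125. These 9 h calls rested on 1 array: without replicate 1 of BV6 at 9 h the changes were 1.62, 1.16 and 1.23, with adjusted p of 0.0948, 0.241 and 0.241. At 3 h and 6 h no U3 probe passed the test; the log2 changes of SNORD3D were 0.51 ± 0.26 and 0.71 ± 0.26, those of SNORD3A -0.18 ± 0.27 and 0.26 ± 0.27, and those of SNORD3C -0.17 ± 0.26 and 0.32 ± 0.26.

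SNORA80A, an H/ACA RNA encoded in an intron of URB1 on chromosome 21, rose next to U3. Its signal lay between 5.18 and 5.86 (median 5.53) on the untreated arrays, and stood at 5.74 and 5.61 at 3 h, 5.56 and 5.60 at 6 h, 6.86 and 6.41 at 9 h, 7.50 and 7.45 at 12 h, and 7.49 and 7.55 at 15 h. The arrays from 9 h on lay above all untreated ones, and the 12 h and 15 h arrays lay close together. The log2 change was 1.10 ± 0.14 at 9 h (adjusted p = 0.00216), 1.94 ± 0.14 at 12 h (adjusted p = 1.08e-05) and 1.98 ± 0.14 at 15 h (adjusted p = 5.72e-06, limma). Without replicate 1 of the 9 h group the 9 h change was 0.87, with an adjusted p of 0.0761. SNORA80A was detected on 1 of 2 arrays at 15 h and on 1 of 6 untreated arrays, so its untreated signal was near the background of the array.

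Many other members rose by smaller amounts at 12 h and 15 h. No member passed the test at 3 h or 6 h, where 0.174% and 0.228% of all probes tested were called higher. At each of these times 7 members had an unadjusted p under 0.05. Such a threshold lets through a share of 0.05 on average when nothing changes. The unadjusted counts given here and below are near or under that share, so they show no change of the members. At 9 h, 5 members were higher (3.82% of members, against 0.522% of all probes): the 3 U3 probes, SNORA80A and SNORA6, an H/ACA RNA in RPSA (0.86 ± 0.14, adjusted p = 0.0168). At 12 h, 35 members were higher (26.7%, against 1.69% of all probes) and SNORA11D was lower (-0.80 ± 0.18, adjusted p = 0.0357; 0.942% of all probes were lower). At 15 h, 45 members were higher and 0 lower (34.4%, against 2.58% of all probes, with 2.03% of all probes lower, limma). The count at 12 h was 15 without replicate 1 of the 12 h group, the count at 15 h was 20 without replicate 2 of the 15 h group, and the count at 9 h was 0 without replicate 1 of the 9 h group and 10 in a fit blocked by replicate number. On slide 3 alone, which held all untreated arrays and replicate 1 of each later BV6 time, 23 members were called at 12 h and 17 at 15 h.

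Of the 47 members higher at any time, 33 were higher at both 12 h and 15 h, 12 at 15 h only and 2 at 12 h only; these times share controls. The 15 h arrays were also set directly against the 3 h arrays, with no untreated array involved, and 33 members were higher there (25.2%, against 1.59% of all probes); this count was 21 without replicate 2 of the 3 h group and 17 without replicate 2 of the 15 h group. Among untreated cells at 15 h against 0 h, 0 members and 0 probes of all those tested passed (limma), and 3 members had an unadjusted p under 0.05. The number of members detected on an array was 28 to 43 in untreated cells, 28 to 32 at 3 h, 36 to 50 at 6 h, 40 to 44 at 9 h, 48 to 54 at 12 h and 47 to 65 at 15 h. In bulk cultures a change in every cell and a change in the share of cells that carry an RNA cannot be told apart.

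Among the members with the largest changes at 15 h were 4 H/ACA RNAs, 2 of which share a host. SNORA63, in EIF4A2, stood at 7.91 and 8.14 at 15 h, against 5.82 to 6.57 (median 5.97) in untreated cells, a log2 change of 1.94 ± 0.18 (adjusted p = 6.21e-05). SNORA12, in CWF19L1, stood at 7.27 and 7.38, against 5.32 to 6.05 (median 5.40) untreated (1.82 ± 0.21, adjusted p = 0.000423). SNORA73A and SNORA73B are both in SNHG3 and together are known as U17, an H/ACA RNA that acts in pre-rRNA cleavage rather than in modification. SNORA73A was at least 2.76-fold higher (1.46 ± 0.13, adjusted p = 4e-05), and the 2 SNORA73B probes changed by 1.61 ± 0.16 and 1.14 ± 0.13. All untreated values of these probes lay below their 15 h values. Besides U3, the C/D members with the largest changes were SNORD31, in SNHG1, at 8.30 and 8.56 against 6.31 to 7.14 (median 6.90) untreated (1.62 ± 0.22, adjusted p = 0.00123), and SNORD12C, in ZFAS1, at 7.18 and 7.93 against 5.78 to 6.19 (median 5.86) untreated (1.60 ± 0.21, adjusted p = 0.00118).

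The members detected on all 48 arrays moved in the same direction from much higher signals. SNORA61, in SNHG12, stood at 10.38 and 10.69 at 15 h, against 9.09 to 9.84 (median 9.51) in untreated cells (1.05 ± 0.18, adjusted p = 0.00621). SNORA67, in EIF4A1, stood at 9.16 and 9.56, against 8.19 to 8.71 (median 8.48) untreated (0.87 ± 0.15, adjusted p = 0.00598). Of the 29 members detected on 24 or more arrays 16 were called higher at 15 h, and of the 113 members detected on some untreated array 42 were. Values at 15 h lay above every untreated value for 69 members (52.7%), against 9.2% of all probes.

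U3 had the largest changes of any class, and H/ACA members were called more often than the other C/D members. At 15 h, 27 of 56 H/ACA probes, 16 of 66 C/D probes and 2 of 9 Cajal-body probes (SCARNA13 and SCARNA18) were higher, and without U3 the C/D count was 13 of 63. The median log2 change was 0.47 for H/ACA, 0.30 for C/D, 0.27 for Cajal-body and 3.59 for U3, with 0.29 for the other C/D probes and -0.03 for all probes tested. At 12 h the medians were 0.45 for H/ACA, 0.28 for C/D, 0.33 for Cajal-body and 2.95 for U3, and 21 H/ACA, 13 C/D and 1 Cajal-body probes were higher. Differences between classes are given as counts and medians and were not tested, since members share hosts and samples.

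**Figure D2:**
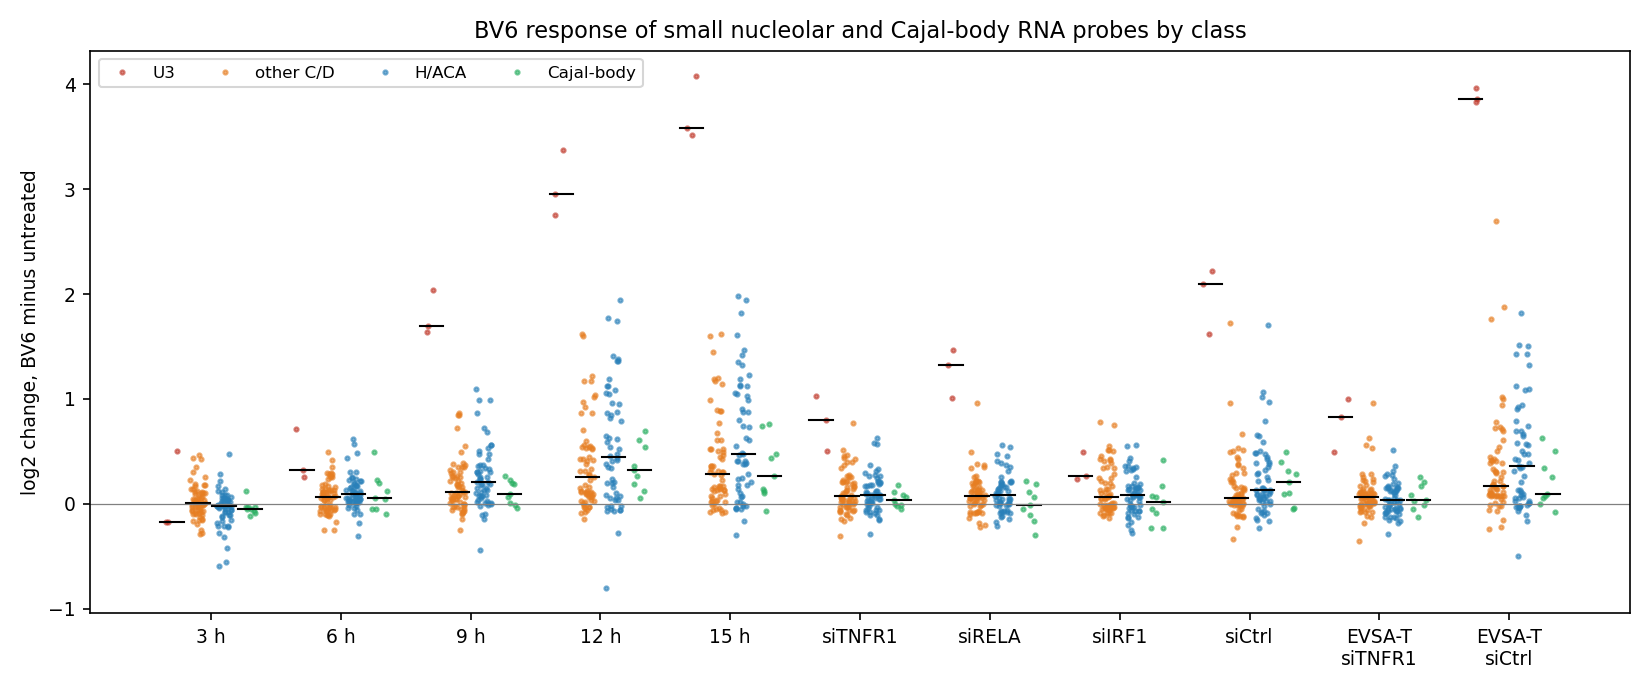
Log2 change with BV6 (vertical axis) of each member, by class (U3, other C/D, H/ACA, Cajal-body), in the BV6 comparisons. Each point is 1 probe and the bars mark class medians; at 15 h the U3 median is 3.59, the H/ACA median 0.47 and the median of the other C/D probes 0.29.

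Most members lie within longer genes, and for most members that rose the longer gene did not pass the test. By RefSeq positions 125 members lay inside a longer gene, 88 of them a protein-coding gene and 34 a long non-coding RNA gene. The 6 others were SNORD3A, SNORD3C, SNORD3D, SNORD13, SNORD32B and SNORA50C. Strand and introns were not checked, so a containing gene need not be the host from which a member is cut. A containing gene had a tested probe for 95 members, with 65 different genes; 27 of these had several probes, and the one with the highest mean signal was used. At 15 h, 31 of these 95 members were higher, and the containing gene was higher as well for 6 of the 31. The median log2 change of the containing genes of those 31 was 0.24, and the member stood above its gene in 28 of the 31. URB1 changed by -0.17, against 1.98 for SNORA80A inside it. EIF4A2 changed by 0.05 (SNORA63 1.94), CWF19L1 by 0.06 (SNORA12 1.82) and ZFAS1 by 0.24 (SNORD12C 1.60), and none of these 4 genes passed the test. By that probe 5 of the 65 genes were higher at 15 h, against 2.58% of all probes. In BV6-treated siCtrl MDA-MB-231 cells 0 of the 65 genes were higher, against 1.13% of all probes, while 7 paired members were. In siCtrl EVSA-T cells 1 gene was (SNHG8, against 3.88% of all probes), in a pair whose member was not called. At these shares few of 65 genes would be called, so counts of 0 or 1 say little about the containing genes. With any probe of the gene counted, a choice made after seeing the data, 1 gene was higher in siCtrl MDA-MB-231 cells (SNHG7, by its other probe), with a called member in 0 cases, and at 15 h the gene was higher for 7 of the 31 called members.

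**Figure D3:**
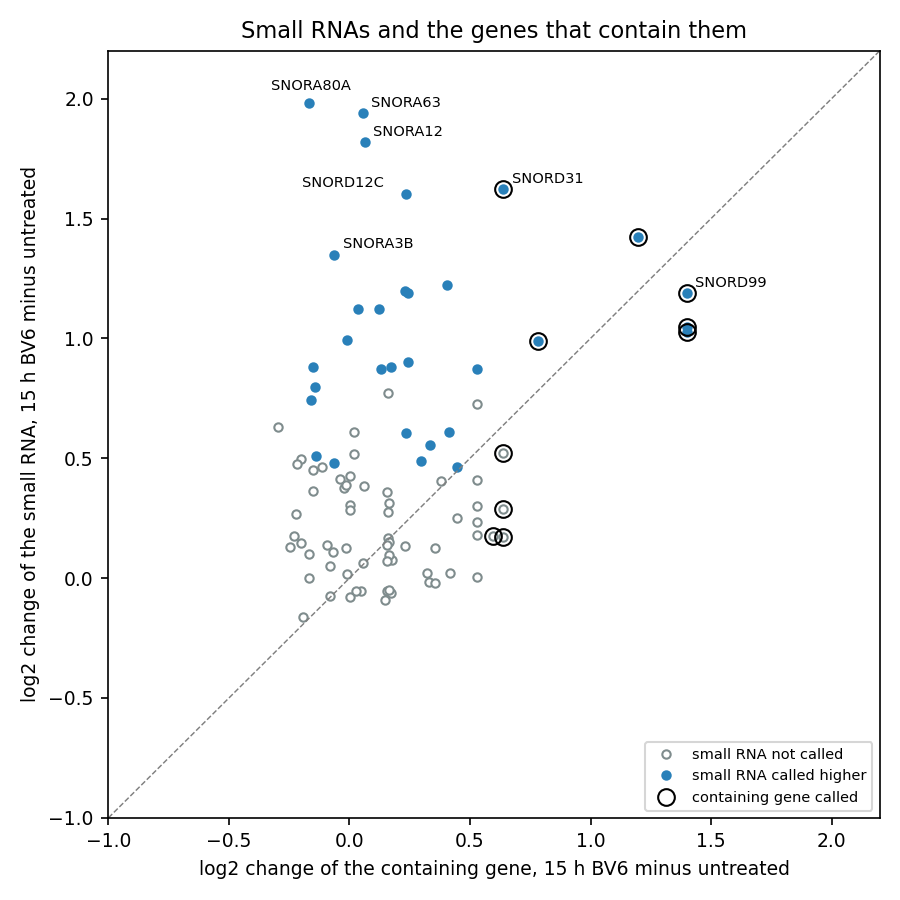
Log2 change at 15 h of BV6 of each member (vertical axis) against that of the gene that contains it (horizontal axis), for 95 members with a measured containing gene. Each point is 1 member; most of the called members lie above the line of equal change, such as SNORA80A at 1.98 with URB1 at -0.17.

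The exceptions were mostly non-coding host genes, whose probes rose with those of the RNAs inside them. SNHG12 rose by 1.40 ± 0.16 at 15 h, with SNORD99 (1.19), SNORA61 (1.05) and SNORA16A (1.03) inside it. SNHG8 rose by 0.78 ± 0.18, with SNORA24 (0.99) inside it, and CSKMT rose by 1.20 ± 0.22, with SNORA57 (1.42). SNHG1 rose by 0.64, but its RNAs moved unequally: SNORD31 rose by 1.62, whereas SNORD22 (0.52), SNORD30 (0.29) and SNORD25 (0.17) did not pass the test. RPL27A, which encodes a ribosomal protein, changed by -0.06, with SNORA3B at 1.35 and SNORA3A at 0.48.

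The start regions of 3 non-coding hosts are shown because SNHG12 and SNHG8 rose with their RNAs at 15 h and ZFAS1 did not pass the test although SNORD12C inside it rose. Each stretch holds 300 bases around the annotated start, from RefSeq on GRCh38.p14, 5′ to 3′ on the strand of the gene. Capitals mark matches to GGGNNNNNCC or GGNNNNNCCC, loose letter patterns of the NF-kB site, which are the reverse complements of each other.
SNHG12 (chr1:28581824-28582123, minus strand): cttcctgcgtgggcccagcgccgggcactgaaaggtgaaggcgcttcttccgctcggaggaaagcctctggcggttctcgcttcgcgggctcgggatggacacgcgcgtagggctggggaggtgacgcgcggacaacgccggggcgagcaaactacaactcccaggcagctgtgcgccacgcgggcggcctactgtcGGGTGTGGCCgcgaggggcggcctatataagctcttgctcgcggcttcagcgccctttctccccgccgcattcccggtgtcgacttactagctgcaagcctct
SNHG8 (chr4:118278512-118278811, plus strand): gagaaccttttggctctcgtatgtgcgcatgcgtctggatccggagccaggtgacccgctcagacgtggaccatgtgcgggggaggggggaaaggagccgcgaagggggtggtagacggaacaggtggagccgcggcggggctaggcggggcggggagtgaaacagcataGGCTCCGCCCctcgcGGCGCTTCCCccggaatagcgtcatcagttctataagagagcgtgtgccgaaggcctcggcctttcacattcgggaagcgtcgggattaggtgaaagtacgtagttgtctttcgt
ZFAS1 (chr20:49278392-49278691, plus strand): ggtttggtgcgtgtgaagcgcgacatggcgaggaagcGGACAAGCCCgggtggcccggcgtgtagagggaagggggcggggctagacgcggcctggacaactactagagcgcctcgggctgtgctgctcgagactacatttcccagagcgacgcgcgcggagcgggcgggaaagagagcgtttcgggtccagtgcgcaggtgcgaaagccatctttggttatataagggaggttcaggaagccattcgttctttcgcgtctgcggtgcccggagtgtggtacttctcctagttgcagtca

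SNHG12 held 1 such match, SNHG8 held 2 and ZFAS1 held 1, on either strand. Of 35116 such start regions in RefSeq, 20602 (58.7%) hold at least 1 match, so a match does not set these genes apart. GAAANNGAAA or its reverse complement TTTCNNTTTC, a letter pattern of IRF sites, was found in none of the 3 and in 1255 start regions (3.57%). A match describes letters and is not a site.

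In siCtrl-transfected MDA-MB-231 cells, 9 h of BV6 raised U3, SNORA80A and 8 other members. SNORD3D stood at 10.28, 10.00 and 9.42 with BV6, against 7.73, 7.29 and 8.02 without. SNORD3A stood at 9.44, 9.01 and 8.59 with BV6, against 6.50, 6.84 and 7.39 without. SNORA80A stood at 7.26, 7.27 and 7.72 with BV6, against 5.72, 5.66 and 5.76 without. For each of them all 3 BV6 arrays lay above all 3 untreated arrays. SNORD3D was 4.66-fold higher (2.22 ± 0.21, adjusted p = 7.8e-07), SNORD3A 4.29-fold (2.10 ± 0.23, adjusted p = 6.46e-06) and SNORD3C 3.08-fold (1.62 ± 0.22, adjusted p = 0.000115). SNORA80A, detected on 0 of the 3 untreated arrays, was at least 3.25-fold higher (1.70 ± 0.13, adjusted p = 1.7e-08, limma).

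In all, 12 members were higher and 0 lower (9.16% higher, against 1.13% of all probes, with 0.48% of all probes lower): 5 of 66 C/D, 7 of 56 H/ACA and 0 of 9 Cajal-body probes. The median log2 change was 0.10 over all members, 2.10 over U3, 0.06 over the other C/D probes and -0.01 over all probes, and the member median was 0.28 with detection required within the experiment and 0.06 with an offset of 50. SNORD12C stood at 8.25, 8.02 and 7.91 with BV6, against 6.32, 6.28 and 6.42 without (1.72 ± 0.25, adjusted p = 0.000265). The others were SNORA12 (1.07 ± 0.21), SNORA63 (1.01 ± 0.19), SNORA57 (0.97 ± 0.21), SNORD99 (0.96 ± 0.20), SNORA79 (0.59 ± 0.12), 1 of the SNORA73B probes (0.44 ± 0.09) and SNORA73A (0.42 ± 0.11). SNORA79 was detected on 3 arrays, all with BV6 and 2 of them in this BV6 group, so it could enter as a member through its rise. By the order of the samples, the arrays lay on slides 1 and 2. On slide 1 alone, with 2 arrays in each siCtrl group, 9 members were called. Slide 2 held 1 array of each siCtrl group, assumed to vary like the other groups there, and 1 member was called on it alone, SNORA80A; there SNORD3D changed by 1.40 (adjusted p = 0.171), SNORD3A by 1.20 (adjusted p = 0.181) and SNORD3C by 1.12 (adjusted p = 0.156).

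Knockdown of TNFR1 or IRF1 lowered U3 and SNORA80A in BV6-treated cells. With knockdown of RELA SNORA80A was lower, and of the U3 probes SNORD3D alone passed the test. With BV6, SNORD3D stood at 8.55, 8.75 and 8.28 in siTNFR1 cells, 9.40, 9.44 and 8.85 in siRELA cells and 8.08, 8.34 and 7.83 in siIRF1 cells, against 10.28, 10.00 and 9.42 in siCtrl cells. The siTNFR1 and siIRF1 values lay below all siCtrl values, and 1 siRELA value lay above the lowest siCtrl value. With BV6, SNORA80A stood at 5.97, 5.94 and 6.11 in siTNFR1 cells, 5.99, 6.03 and 5.86 in siRELA cells and 5.92, 6.18 and 6.12 in siIRF1 cells, against 7.26, 7.27 and 7.72 in siCtrl cells. All 9 knockdown values of SNORA80A lay more than 1 log2 unit below the lowest siCtrl value. With BV6 it was detected on 0 of 3 siTNFR1, 0 of 3 siRELA and 1 of 3 siIRF1 arrays, against 3 of 3 siCtrl arrays. Its knockdown values were therefore near the background of the array. These low signals also enter its differences, changes and interactions given below.

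Among BV6-treated cells, SNORD3D differed by -1.37 ± 0.21 in siTNFR1 (adjusted p = 0.000403), -0.67 ± 0.21 in siRELA (adjusted p = 0.0408) and -1.81 ± 0.21 in siIRF1 cells (adjusted p = 2.84e-06). The siRELA call for SNORD3D was lost without replicate 1 or 2 of siCtrl or without replicate 1 or 3 of siRELA, with adjusted p of 0.0518 to 0.21. The other U3 probes did not pass with siRELA. Over the alternatives SNORD3A differed there by -0.66 to -0.13 and SNORD3C by -0.89 to -0.35. SNORA80A differed by -1.41 ± 0.13, -1.46 ± 0.13 and -1.34 ± 0.13 in siTNFR1, siRELA and siIRF1 cells, with adjusted p of at most 4.03e-07. In siTNFR1 cells 13 members were lower (9.92%, against 1.44% of all probes), in siRELA cells 14 (10.7%, against 6.69%) and in siIRF1 cells 13 (9.92%, against 8.37%). The siIRF1 share is near that of all probes. SNORD13 in siRELA cells, and SNORA18, SNORD83B and SNORA84 in siIRF1 cells, were higher (0.763% and 2.29% of members, against 6.68% and 7.24% of all probes). The siTNFR1 count was 8 without replicate 1 of siCtrl, 6 without replicate 1 and 7 without replicate 3 of siTNFR1. For siRELA the count in either direction, 15, was 6 without replicate 1 and 9 without replicate 3 of siRELA, and 6 without replicate 2 of siCtrl.

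Within each knockdown, few members rose with BV6. In siTNFR1 cells 1 member did, SNORD3D (1.03 ± 0.21, adjusted p = 0.016; 0.763% of members, against 0.63% of all probes), and the call was lost without replicate 1 or 2 of either siTNFR1 group (adjusted p of 0.0674 to 0.0909). In siRELA cells SNORD3D (1.47 ± 0.21, adjusted p = 0.000969) and SNORD3A (1.32 ± 0.23, adjusted p = 0.00796) rose (1.53% of members, against 0.174% of all probes), and the SNORD3A call was lost without replicate 1 or 2 of untreated siRELA or replicate 2 of BV6-treated siRELA cells (adjusted p of 0.0573 to 0.084); without replicate 3 of BV6-treated siRELA cells the count was 4. In siIRF1 cells SNORD3D changed by 0.49 ± 0.21 and SNORD3A by 0.27 ± 0.23, neither past the test. The 1 member called in siIRF1 cells was SNORD4A (0.763%, against 0.348% of all probes), a C/D RNA that was detected on none of those 6 arrays and whose call was lost without any of 5 of them. SNORA80A had log2 changes of 0.34, 0.13 and 0.13 in siTNFR1, siRELA and siIRF1 cells, none past the test. Of the arrays of these groups only 1, of BV6-treated siIRF1 cells, listed SNORA80A as detected.

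**Figure D4:**
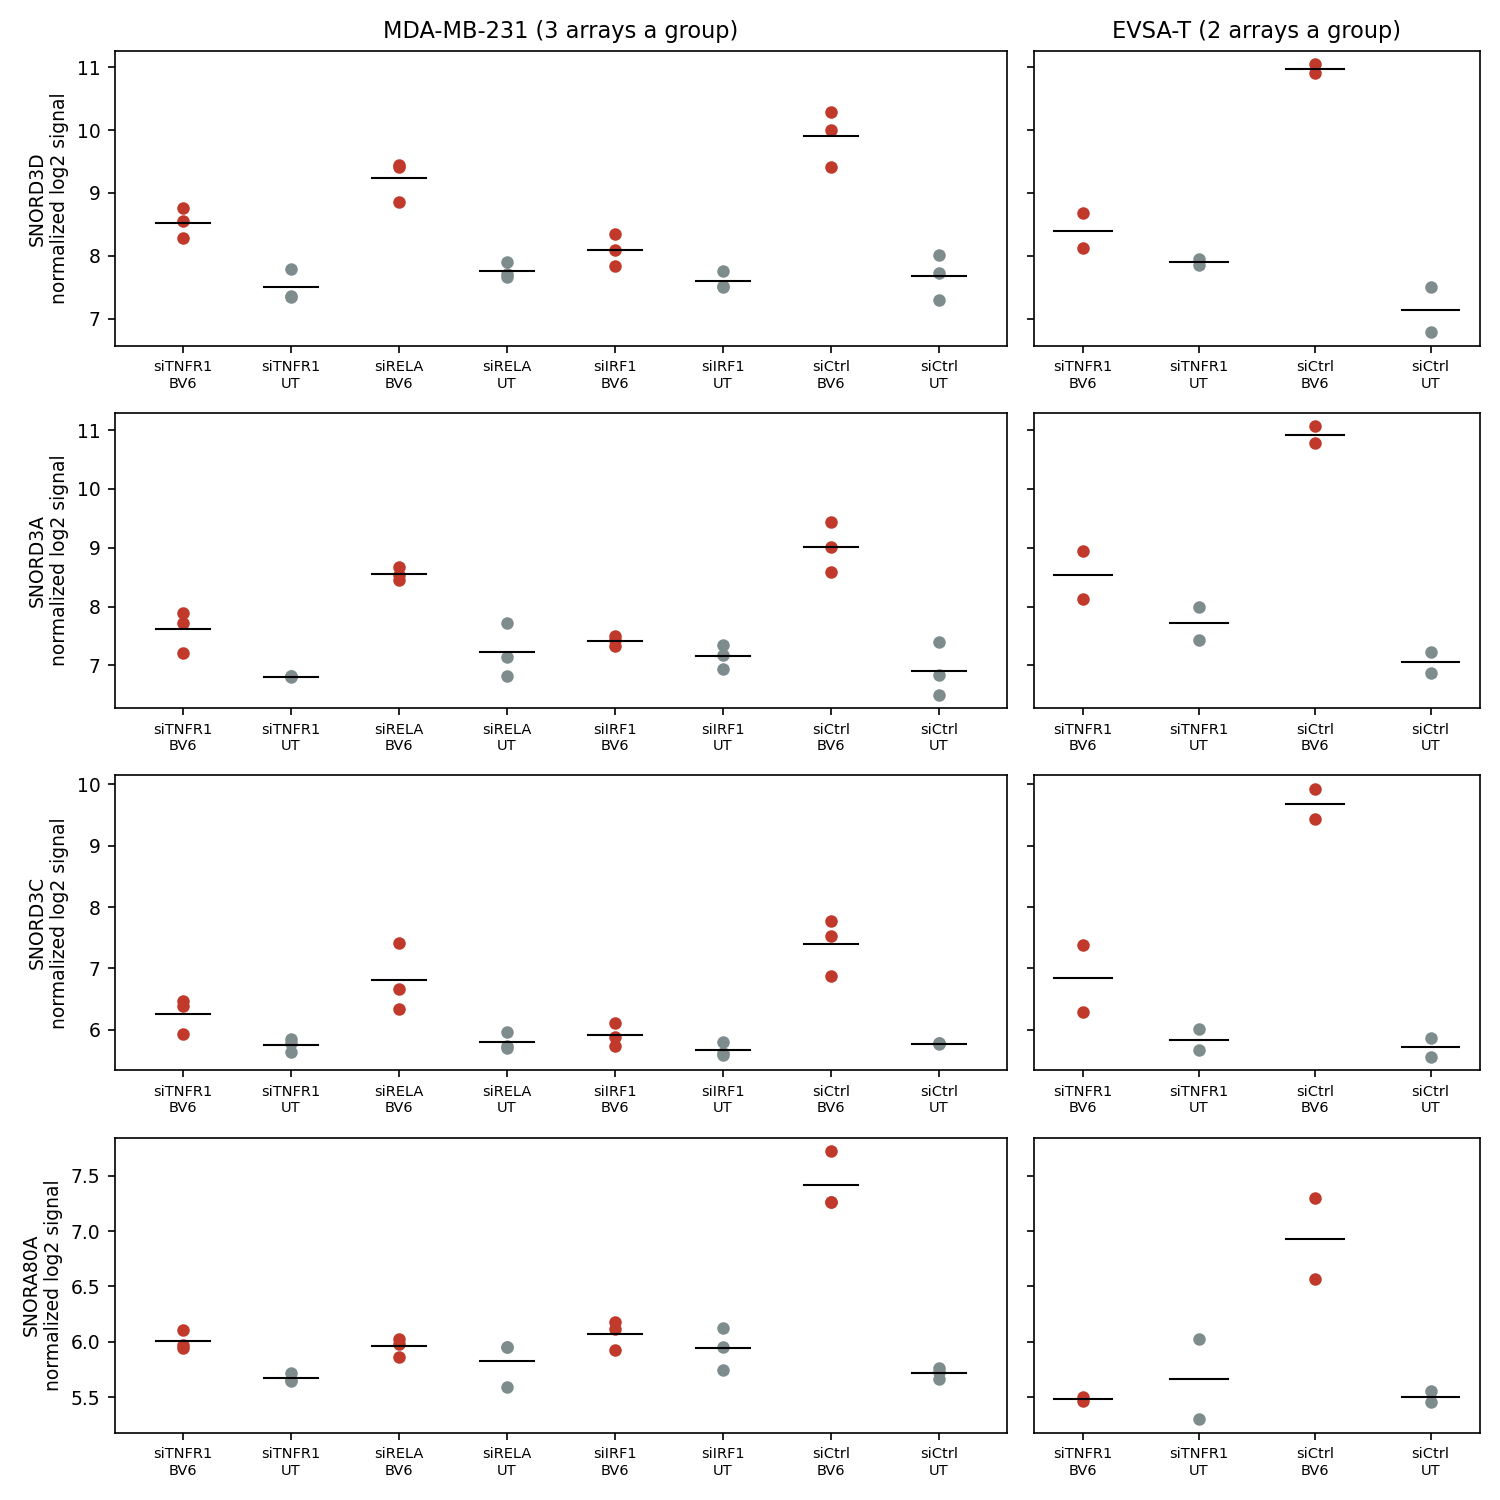
Normalized log2 signal (vertical axis) of SNORD3D, SNORD3A, SNORD3C and SNORA80A by siRNA in MDA-MB-231 cells (left, 3 arrays per group) and EVSA-T cells (right, 2 per group), with the BV6 arrays (red) left of the untreated arrays (grey, UT) of the same siRNA. Each point is 1 array and the bars are group means; in MDA-MB-231 cells SNORA80A stands at 7.26 to 7.72 in BV6-treated siCtrl cells and at 5.86 to 6.18 with BV6 in the knockdowns.

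The difference in BV6 response between knockdown and siCtrl cells was tested as an interaction. For SNORA80A it was -1.36 ± 0.18 with siTNFR1 (adjusted p = 0.00286), -1.57 ± 0.18 with siRELA (adjusted p = 7.2e-05) and -1.57 ± 0.18 with siIRF1 (adjusted p = 0.000151). For U3 it passed with siIRF1 for SNORD3A (-1.83 ± 0.33, adjusted p = 0.0126) and SNORD3D (-1.73 ± 0.30, adjusted p = 0.0119), and did not for SNORD3C (-1.39 ± 0.31, adjusted p = 0.122). Both siIRF1 calls for U3 were lost without any 1 of several arrays, with adjusted p of up to 0.0641 for SNORD3A and 0.0565 for SNORD3D. In those runs the interaction was -1.62 to -1.80 for SNORD3A and -1.54 to -1.65 for SNORD3D. With siTNFR1 the U3 interactions were -1.30, -1.19 and -1.12 for SNORD3A, SNORD3D and SNORD3C (adjusted p = 0.447 each), and with siRELA -0.78, -0.75 and -0.62, none past the test. These counts, 1, 1 and 3 members lower, stood against 0.006%, 0.03% and 0.126% of all probes. On slide 1 alone and on slide 2 alone the interaction counts were 0, but each slide held groups of 1 array, so these say nothing about stability. The siIRF1 count was 1 without replicate 1 of BV6-treated or replicate 2 of untreated siCtrl cells, or without replicate 3 of BV6-treated siIRF1 cells.

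Without BV6, few members differed between knockdown and siCtrl cells, and these were C/D and H/ACA members other than U3. The shares called lay below those of all probes with siRELA and siIRF1, and near that share with siTNFR1. No U3 probe passed the test in untreated siTNFR1, siRELA or siIRF1 cells, with median log2 changes over U3 of -0.10, 0.08 and -0.08. SNORD13, the C/D RNA U13 that acts in 18S processing and has its own promoter, stood at 8.97, 8.56 and 8.90 in untreated siRELA cells, against 7.69, 7.16 and 7.35 in siCtrl cells (1.41 ± 0.24, adjusted p = 0.000348, limma). It was also higher with BV6, at 9.22, 8.95 and 8.85 in siRELA cells, against 8.20, 7.83 and 7.63 in siCtrl cells (1.12 ± 0.24, adjusted p = 0.00307), and no siRELA array overlapped a siCtrl array of the same treatment. SNORD13 was the 1 member higher in untreated siRELA cells, and SNORD16, SNORD96A, SNORD36A and SNORD78 were lower (0.763% higher and 3.05% lower, against 7.25% and 7.08% of all probes). SNORD78 was detected on none of the untreated siRELA and siCtrl arrays. The count of 5 was 1 without replicate 1 of siRELA or replicate 3 of siCtrl, and 3 without replicate 2 or replicate 3 of siRELA.

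SNORD16, a C/D RNA in RPL4, stood at 6.01, 6.64 and 6.54 in untreated siTNFR1 cells and 6.45, 6.55 and 6.97 in untreated siIRF1 cells, against 6.89, 7.65 and 7.87 in untreated siCtrl cells. It differed by -1.07 ± 0.24 in siTNFR1 (adjusted p = 0.0148) and by -0.81 ± 0.24 in siIRF1 cells (adjusted p = 0.0234). It was the 1 member called in untreated siTNFR1 cells (0.763%, against 0.648% of all probes lower), and was not called without replicate 1 of siTNFR1 or without replicate 2 or 3 of siCtrl. In untreated siIRF1 cells 3 members were lower, SNORD16, SNORD104 (-0.98) and SNORA57 (-0.64), and SNORA18 (0.45) and SNORA84 (0.37) were higher (2.29% and 1.53% of members, against 8.02% and 6.61% of all probes). That count of 5 was 1 to 3 without any 1 of the 3 siIRF1 arrays or of replicates 2 and 3 of siCtrl. All these comparisons share the siCtrl arrays.

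In EVSA-T cells U3 rose by more than any other member. SNORD3D stood at 11.05 and 10.90 in BV6-treated siCtrl cells, against 7.50 and 6.78 in untreated siCtrl cells. SNORD3A stood at 11.06 and 10.78 with BV6, against 7.24 and 6.88 without. SNORD3C stood at 9.93 and 9.43 with BV6, against 5.87 and 5.56 without. No BV6 array came within 3 log2 units of an untreated array for any of the 3 probes. SNORD3A was 14.5-fold higher (3.86 ± 0.30, adjusted p = 0.000692), SNORD3D 14.2-fold (3.83 ± 0.26, adjusted p = 0.000479) and SNORD3C, detected on neither untreated array, at least 15.6-fold (3.97 ± 0.36, adjusted p = 0.00118, limma).

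Of the 131 members 22 were higher in BV6-treated siCtrl EVSA-T cells and 0 lower (16.8%, against 3.88% of all probes, with 2.25% of all probes lower), 9 C/D, 13 H/ACA and 0 Cajal-body probes. The count was 12 without replicate 1 and 11 without replicate 2 of untreated siCtrl, and 14 without replicate 1 of BV6-treated siCtrl cells. The medians were 0.36 for H/ACA, 0.18 for C/D, 0.09 for Cajal-body and 3.86 for U3, with 0.17 for the other C/D probes and -0.04 for all probes. SNORD12C stood at 7.85 and 8.22 with BV6, against 5.32 and 5.35 without, at least 6.49-fold higher (2.70 ± 0.15, adjusted p = 0.0002). SNORD104, in SNHG25, stood at 8.77 and 8.66, against 7.12 and 6.56 (1.88 ± 0.19, adjusted p = 0.00202). SNORD13 stood at 7.86 and 7.49, against 6.11 and 5.71 (1.76 ± 0.25, adjusted p = 0.00819). The BV6 values of all 3 lay above the untreated ones.

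Among H/ACA members of EVSA-T cells, SNORA33, in RPS12, stood at 7.36 and 7.29 with BV6, against 5.87 and 5.75 without, at least 2.86-fold higher (1.52 ± 0.15, adjusted p = 0.0018). SNORA3B stood at 7.59 and 7.57, against 5.58 and 5.93 (1.82 ± 0.19, adjusted p = 0.0024), although neither BV6 array listed it as detected. SNORA61, detected on all 4 arrays, stood at 9.34 and 9.60, against 8.09 and 8.0 (1.42 ± 0.14, adjusted p = 0.00201). SNORA80A stood at 7.30 and 6.56, against 5.45 and 5.56 (1.43 ± 0.29, adjusted p = 0.0359). Its arrays did not overlap, but the call was lost without either untreated array or without replicate 1 of the BV6 arrays, with adjusted p of 0.131 to 0.157.

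In EVSA-T cells with siTNFR1 no member passed the test with BV6. SNORD3D stood at 8.67 and 8.12 in BV6-treated siTNFR1 cells, against 7.86 and 7.94 in untreated siTNFR1 cells. SNORD3A stood at 8.95 and 8.14, against 7.99 and 7.44. SNORD12C, detected on none of these siTNFR1 arrays, stood at 5.38 and 5.40, against 5.44 and 5.21. The U3 arrays with BV6 lay above the untreated ones by less than the change in siCtrl cells, and the SNORD12C values overlapped. Of all probes 0.006% were called higher there (limma), and 5 members had an unadjusted p under 0.05; SNORD3C, SNORD3A and SNORD3D had log2 changes of 1.00 ± 0.36, 0.82 ± 0.30 and 0.50 ± 0.26.

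Among BV6-treated EVSA-T cells, siTNFR1 lowered 22 members (16.8%, against 3.85% of all probes), among them SNORD3C (-2.84), SNORD12C (-2.64), SNORD3D (-2.58) and SNORD3A (-2.38). The count was 12 without replicate 1 and 11 without replicate 2 of siTNFR1, and 10 without replicate 2 of siCtrl. As an interaction, 9 members responded less to BV6 with siTNFR1 than with siCtrl (6.87%, against 1.36% of all probes): the 3 U3 probes, SNORD12C, SNORD104, SNORA3B, SNORA10, SNORA33 and SNORA73A. SNORD3D had an interaction of -3.33 ± 0.37 (adjusted p = 0.011) and SNORD12C of -2.63 ± 0.21 (adjusted p = 0.00314). This count was 2 to 4 without any 1 of the 8 arrays, and the interaction of SNORD3D passed in each of these 8 cases. Between untreated siTNFR1 and untreated siCtrl cells 0 members and 0 of all probes passed the test (limma), and 5 members had an unadjusted p under 0.05.

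Untreated EVSA-T and MDA-MB-231 cells with siCtrl differed in 39 members, 24 higher and 15 lower in EVSA-T (18.3% and 11.5%, against 27.3% and 24.8% of all probes). U3 and SNORA80A were not among them: SNORD3A differed by 0.64 ± 0.29 (adjusted p = 0.0714), SNORD3C by 0.27 ± 0.28, SNORD3D by -0.04 ± 0.27 and SNORA80A by 0.06 ± 0.22. SNORD83B, a C/D RNA in RPL3, was 5.02-fold higher in EVSA-T (2.33 ± 0.16, adjusted p = 9.5e-10). SNORA59A, in VPS13D, was at least 3.55-fold higher (1.83 ± 0.13, adjusted p = 1.82e-09), and SNORD30, in SNHG1, at least 3.17-fold lower (-1.66 ± 0.24, adjusted p = 1.1e-05). By the order of the samples, the EVSA-T arrays shared a slide that held no transfected MDA-MB-231 array. Cell line and slide therefore cannot be told apart.

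The response to 9 h of BV6 was larger in EVSA-T at 5 nM than in MDA-MB-231 at 50 nM for 10 members and smaller for 0 (7.63% larger, against 2.2% of all probes). For SNORD3C the difference in log2 change was 2.44 ± 0.39 (adjusted p = 0.000847), for SNORD3A 1.64 ± 0.41 (adjusted p = 0.0312) and for SNORD3D 1.47 ± 0.38 (adjusted p = 0.037). The other 7 were SNORD12C (1.16), SNORD13 (1.30), SNORA3B (1.59), SNORA33 (1.26), SNORA28 (1.07), SNORA61 (0.88) and SNORA21 (0.65). SNORA21 was detected on no siCtrl array of either line, and SNORA33 on no siCtrl MDA-MB-231 array. The count was 6 without replicate 2 of BV6-treated siCtrl MDA-MB-231 or replicate 2 of untreated siCtrl EVSA-T cells, and the calls of SNORD3A and SNORD3D were each lost without any of several single arrays (adjusted p up to 0.139 and 0.203). Dose, cell line and slide differ together in this comparison.

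The 3 experiments use separate arrays, so their lists of members higher with BV6 can be set side by side. Of the 12 members higher in siCtrl MDA-MB-231 cells at 9 h, 11 were among the 45 higher at 15 h in the kinetic (91.7% of the first list and 24.4% of the second). Of the same 12, 9 were among the 22 of EVSA-T (75% and 40.9%), and 17 members were shared between the 15 h list and the EVSA-T list (37.8% and 77.3%). The same overlaps over all probes called are not given here, and members could enter through their rise with BV6. Whether members recur more than other probes that respond to BV6 was therefore not tested. The 9 members in all 3 lists were SNORD3A, SNORD3C, SNORD3D, SNORD12C, SNORD99, SNORA57, SNORA63, SNORA73A and SNORA80A. They include all 3 U3 probes, 2 other C/D RNAs from non-coding hosts (ZFAS1 and SNHG12) and 4 H/ACA RNAs.

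**Figure D5:**
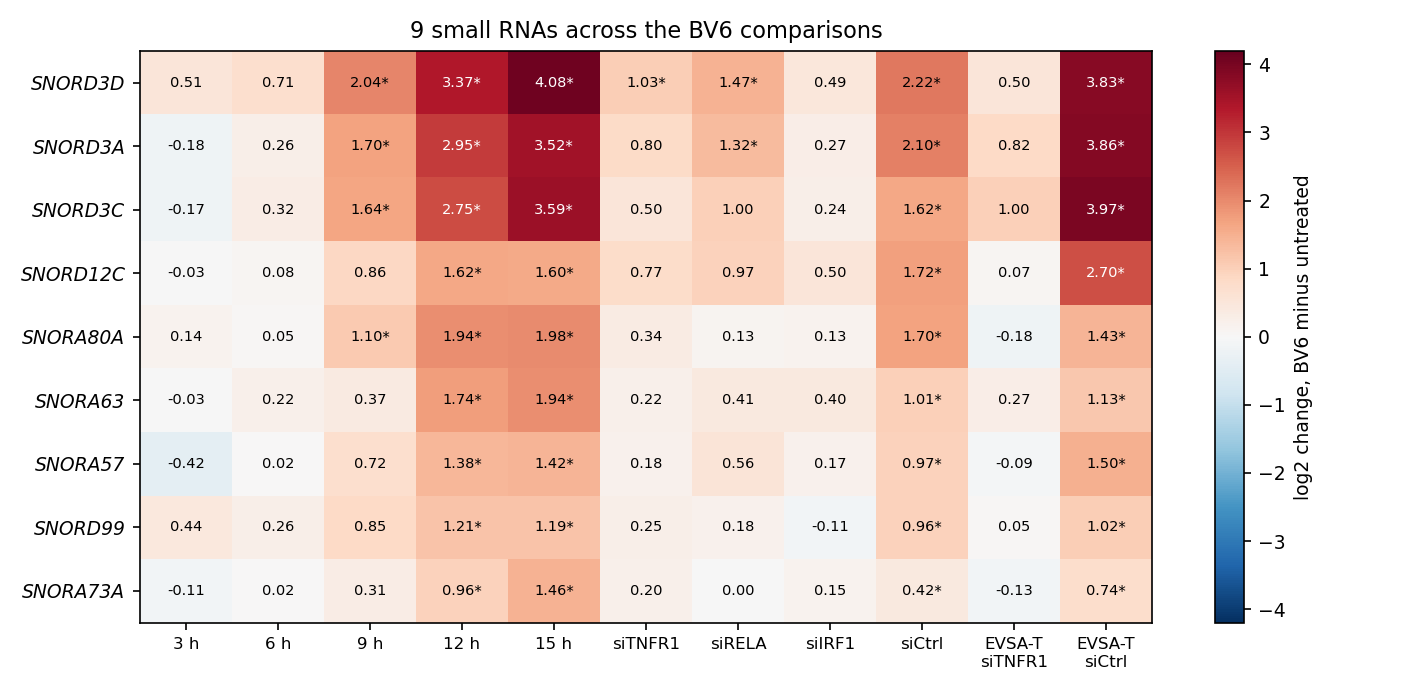
Log2 change with BV6 of the 9 members higher in siCtrl MDA-MB-231 cells, at 15 h of the kinetic and in siCtrl EVSA-T cells, across the BV6 comparisons. Colour gives the log2 change and a star marks an adjusted p under 0.05; U3 spans 1.62 to 4.08 in those 3 comparisons and no star stands in the EVSA-T siTNFR1 column.

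Few probes for the proteins that work with these RNAs passed the test, and few would at the share of all probes. The shares of all probes called higher were 2.58% at 15 h, 1.13% in siCtrl MDA-MB-231 and 3.88% in siCtrl EVSA-T cells. A count of 0 in a short list therefore says little about these proteins. At 15 h of BV6, 0 of 8 probes for C/D snoRNP core proteins, 0 of 11 for H/ACA core proteins and 0 of 15 for assembly factors were higher, and 0 were lower in each. Of 26 probes for the U3 snoRNP and small subunit processome, the machine in which U3 acts, 1 was higher (IMP4, 0.50), and of 14 for Cajal body and cap trimethylation proteins 1 was (PHAX, 0.50, the export adaptor for capped small RNAs). Of 23 probes for RNA decay factors and 17 for Integrator, which cuts the ends of small nuclear RNAs, 0 were higher. In siCtrl MDA-MB-231 cells NOL6 (0.53) was the 1 processome probe called higher, and in siCtrl EVSA-T cells UTP3 (0.94) was; the assembly factor NAF1 (0.79) was higher in EVSA-T cells. Non-coding host genes were higher for 8 of 19 probes at 15 h, for 1 in siCtrl MDA-MB-231 cells (SNHG7, 0.98) and for 1 in siCtrl EVSA-T cells (SNHG8, 0.76).

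Other short structured RNAs that are not snoRNAs also rose with BV6. Of 24 probes for spliceosomal, 7SK, Y, 5S and RNase P RNAs, 16 were higher at 15 h with a median log2 change of 2.16, 14 in BV6-treated siCtrl MDA-MB-231 cells with a median of 0.74, and 17 in BV6-treated siCtrl EVSA-T cells with a median of 1.60. RNU4-2, a U4 spliceosomal RNA, changed by 5.83 at 15 h and RN7SK, the RNA that holds the elongation factor P-TEFb inactive, by 4.51 in 1 probe. With BV6 in the siTNFR1, siRELA and siIRF1 MDA-MB-231 cells 5, 7 and 1 of the 24 were higher, and 0 in siTNFR1 EVSA-T cells. Like U3, most of these RNAs are made from their own promoters and carry no poly(A) tail. Their part in the members' changes was not tested.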

How the data were processed

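RNA of 48 samples was measured on Illumina HumanHT-12 arrays, and the sample labels gave the groups. The labels and column headers do not give the slides. Slide numbers follow the order of the samples, with 12 arrays on each of 4 slides. All results by slide rest on this assumed assignment. The deposited table gives log2 signals of 5.47 to 14.9 and a detection p-value per probe, per the file headers; the authors also deposited a series matrix of quantile-normalized log2 values, used as an alternative. Software and genome build are not given in the sources used here. Signals were raised to the power of 2 and processed per experiment in R 4.3.3 with limma 3.58.1: neqc background correction (offset 16, negative controls inferred from detection p) and quantile normalization. For the cell-line comparison, the 12 MDA-MB-231 arrays of siCtrl and siTNFR1 and the 8 EVSA-T arrays were processed together.

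Of 48107 probes, 3 lacked a value, 30112 had 1 symbol in the platform annotation, 8 several and 17984 none. The 16659 probes with 1 symbol and a detection p under 0.01 on at least 2 of the 48 arrays were tested with lmFit and eBayes, 1 coefficient per group, with residual degrees of freedom of 16 (siRNA), 8 (kinetic), 4 (EVSA-T) and 12 (cell lines). Called means a Benjamini-Hochberg adjusted p under 0.05 over all probes tested. Errors are standard errors of the fit. Where a fold is given for a probe detected on no array of one group, it is "at least" a fold. It is taken against the higher of the probe's signal and the lowest detected signal. Log2 changes and interactions are given as fitted, also for such probes. All 131 member probes matched RefSeq by Entrez identifier, and 0 symbols differed. RefSeq positions gave the genes that contain members: the shortest one that spans the member, on either strand and without regard to introns. Members' own sequences and probe sequences were not used here.

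The members and gene lists were chosen with earlier results of these data known. U3 and SNORA80A were named throughout, and the members detected on all 48 arrays in some of the comparisons. For each comparison a list was made of the 10 members with the largest absolute log2 change. It was limited to members called and detected on all arrays of 1 of the groups. Not every listed member is named in the text, and some named members, such as SNORD30, were not on the list. Which ones to name was in part chosen after their values were seen. Related genes were named only where called. Members of counts of 5 or fewer, members of shared lists and the genes that contain a named member were named after their values were seen. The labels do not say that replicates were separate cultures, so p-values reflect only sample-to-sample spread, perhaps technical. The number of arrays limits the precision.

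In simulated data of 16659 probes, planted changes of 1 log2 unit were called for 92% of changed probes in the siCtrl MDA-MB-231 design, 78% at 15 h of the kinetic and 63% in siCtrl EVSA-T cells. Same-numbered replicates were judged to pair where there were at least 3 pairs and each pair's deviations from the group means correlated above 0.1. Comparisons with 2 pairs were too few to be judged, although some had r above 0.1. In EVSA-T cells r was 0.298 for BV6 in siCtrl and 0.347 in siTNFR1. It was 0.205 and 0.156 there for siTNFR1 without and with BV6, and 0.272 for untreated MDA-MB-231 cells at 15 h against 0 h. Both conditions held in MDA-MB-231 cells for BV6 in siCtrl (r of 0.114 to 0.233) and siIRF1 cells and for siRELA among BV6-treated cells. They also held for BV6 at 6, 9, 12 and 15 h (9 h: 0.224 to 0.366) and for the EVSA-T interaction (0.154 to 0.347). Pairing comes from these correlations and not from the labels. The main fits did not use it, and a block by replicate number was run only as an alternative. Alternatives were the offset, no background correction, joint normalization, the series matrix, other filters, 1 probe per gene, slide and replicate blocks, single slides, same-hour controls and leaving out each replicate.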

Additional observations from a re-analysis of the deposited data

Results flagged for a closer look

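Each value here is a difference between groups in the response to BV6 that passed its own test (limma, adjusted over all probes). In MDA-MB-231 cells the log2 change of SNORA80A with BV6 differed from that in siCtrl cells by -1.365 in siTNFR1, by -1.572 in siRELA and by -1.5673 in siIRF1 cells. With siIRF1 the difference was -1.7286 for SNORD3D and -1.8349 for SNORD3A. SNORD3C, the other U3 probe, did not pass there.

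In EVSA-T cells the response was smaller in siTNFR1 than in siCtrl cells for 9 members. The difference was -3.3321 for SNORD3D, -3.0359 for SNORD3A and -2.9696 for SNORD3C. It was -2.6288 for SNORD12C and -1.9042 for SNORD104 among other C/D members. Among H/ACA members it was -1.51 for SNORA3B, -1.5293 for SNORA33, -1.0349 for SNORA10 and -0.8687 for SNORA73A.

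The response was larger in siCtrl EVSA-T than in siCtrl MDA-MB-231 cells for 10 members, at doses of 5 nM and 50 nM. The difference was 2.4392 for SNORD3C, 1.6375 for SNORD3A and 1.471 for SNORD3D. It was 1.162 for SNORD12C and 1.302 for SNORD13. Among H/ACA members it was 1.5866 for SNORA3B, 1.2632 for SNORA33, 1.0712 for SNORA28, 0.883 for SNORA61 and 0.6544 for SNORA21. SNORA21 was detected on no array of these groups, and SNORA33 on none of the MDA-MB-231 arrays among them. Slide and cell line cannot be told apart in these values.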

How the results depend on the processing

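U3 stayed called under all alternatives run at 12 h, at 15 h and in siCtrl EVSA-T cells, and in siCtrl MDA-MB-231 cells under all but slide 2 alone. Over 3016 settings of 186 named values, 0 values turned their sign where they were called, and 31 settings of 19 values turned it where they were called neither way. Counts of called members, in either direction, moved as follows, and the cause was not tested unless fewer arrays were used. On slide 1 the siTNFR1 and siIRF1 groups, and on slide 2 the siCtrl and siRELA groups, had 1 array each, assumed to vary like the others. With slide 2 alone they were 1 for BV6 in siCtrl, 0 in siTNFR1, siRELA and siIRF1, 0 for untreated siTNFR1 and siRELA, 2 for untreated siIRF1, 1, 1 and 9 for siTNFR1, siRELA and siIRF1 among BV6-treated cells, and 0 for the 3 interactions. With slide 1 alone they were 0 for BV6 in siTNFR1 and siIRF1, 0, 1 and 1 for untreated siTNFR1, siRELA and siIRF1, 3 and 8 for siTNFR1 and siRELA among BV6-treated cells, and 0 for the interactions. With slide 3 alone they were 23 at 12 h and 17 at 15 h. The count for BV6 in siIRF1 was 0 with an offset of 50 or no detection filter, which also left 3 for untreated siIRF1. No background correction gave 3 for the siTNFR1 interaction and 8 at 9 h, the series matrix gave 3 for that interaction, the filter within the experiment gave 8 at 9 h, and the same-hour untreated group gave 3 at 9 h. The member median was 0.58 at 15 h and 0.63 in siCtrl EVSA-T cells with the filter within the experiment, which tests fewer members, and 0.24 and 0.14 with an offset of 50, against 0.36 and 0.25.

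With the replicate block the counts were 10 at 9 h, 17 for BV6 in siCtrl, 39 at 12 h, 50 at 15 h, 28 in siCtrl EVSA-T cells and 11 for the EVSA-T interaction. The replicate block lost no call of a named member and added 2, both SNORD3C: siRELA among BV6-treated cells (-0.59, adjusted p = 0.049) and BV6 in siRELA (1.00, adjusted p = 0.0309), where the numbers do not pair the samples. A slide block in the kinetic, chosen after seeing the data, gave 6 at 9 h, 32 at 12 h and 38 at 15 h.

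Leaving out 1 array at a time gave 9 to 12 for BV6 in siCtrl, 0 to 1 in siTNFR1, 1 to 4 in siRELA and 0 to 1 in siIRF1. It gave 0 to 1, 1 to 7 and 1 to 4 for untreated siTNFR1, siRELA and siIRF1, 6 to 12, 6 to 14 and 14 to 20 among BV6-treated cells, and 1 to 1, 1 to 1 and 1 to 4 for the interactions. In the kinetic it gave 0 to 1 at 3 h, 0 at 6 h, 0 to 6 at 9 h, 15 to 35 at 12 h, 20 to 42 at 15 h and 17 to 29 for 15 h against 3 h. In EVSA-T it gave 11 to 18 for BV6 in siCtrl, 10 to 15 for siTNFR1 among BV6-treated cells, 2 to 4 for the interaction and 6 to 10 for the response against MDA-MB-231. Where it left 1 array in a group, that array was assumed to vary like the other groups. Signals near background limit SNORA80A and the 40 members detected on 2 or 3 arrays.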
